A study of Arabidopsis thaliana with 12 samples.

Results

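The 60 brightest named features of water-treated Arabidopsis thaliana cell culture were examined, that is, the array features with 1 assigned gene whose hybridization signal was highest without cytokinin. They were chosen by their mean deposited intensity on the 6 water arrays, among the 692 features for which the platform annotation gives exactly 1 gene, out of 3439 features on the array. AT1G35510 and AT4G29890 were set aside by name, as were genes whose listed names hold words such as kinase, phosphatase or histone, and the 60 features with the highest mean were kept. The words set aside 5 genes, PPDK, SBPASE, PRK and 2 genes named histone 3.1, and the brightest of them, PPDK, stood at place 110 of the 692, so the words removed no feature that would otherwise have been kept. Descriptive names were at hand for 102 of the 692 genes, so a word could act on these only. General knowledge, not the listed names, places 7 of the 60 members in families set aside by name. AT3G54930 and AT3G26630 are among these 7, which were kept.

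Total RNA of wild-type Columbia-0 cell culture had been hybridized to 12 arrays. The 6 cytokinin arrays hold culture given cytokinin for 2 h, and the 6 water arrays hold culture given water, which a second label calls untreated. Both groups are wild type, carry the numbers 1 to 6, and come from a culture of whole cells without further description. The labels name neither the cytokinin nor the duration of the water treatment. Nothing says that the numbers stand for separate cultures, so the p-values reflect the scatter among these arrays, which may be technical.

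Cytokinins are plant hormones that bind histidine kinase receptors at cellular membranes, from which phosphate is relayed to response regulators in the nucleus. Type-B regulators then switch on target genes, type-A regulators among them, and in green tissue cytokinin favours greening and chloroplast development. Chloroplasts hold the 2 photosystems, which are multi-subunit complexes built from plastid-encoded and nuclear-encoded proteins, and an NADH dehydrogenase-like complex that passes electrons from ferredoxin around photosystem I. Several of the genes described here are nuclear genes for such plastid proteins.

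Total intensity ran from 3743 to 3810 on cytokinin arrays and from 3765 to 3875 on water arrays. The median intensity of an array lay between 0.674 and 0.693 with cytokinin and between 0.724 and 0.744 with water, so the groups differ in overall level before any normalization. Of 54 marker genes in 6 lists (type-A response regulators, other cytokinin genes, leaf, root, seed and dividing cells), 1 is the only gene of a feature, so the label cell culture could not be checked against markers. Arrays with the same number deviated together from their group means (correlations across features from 0.696 to 0.839), so values with the number as a block are given beside results that it changes.

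The brightest named features spanned a wide range of signal. AT2G27290 had a deposited intensity of 56.7 at the lowest, 64.7 at the median and 69.3 at the highest of the cytokinin arrays, against 57.9, 59.3 and 63.8 on the water arrays. It was the third brightest of all features in water, and the 2 groups overlap. AT3G09850 had 49.1, 50.9 and 52.2 on the cytokinin arrays (lowest, median and highest), against 37.5, 50.4 and 59.8 on the water arrays. Its water values enclose all of its cytokinin values. PSBW, which encodes subunit W of the photosystem II reaction centre, had 32.1, 36.9 and 38.8 on the cytokinin arrays, against 23.5, 32.4 and 33.5 on the water arrays. It was higher with cytokinin in all 6 same-numbered pairs, yet the groups overlap.

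Behind these 3 came AT4G17070, with 11.1, 19.2 and 24.5 on the cytokinin arrays (lowest, median and highest), against 13.97, 18.0 and 22.3 on the water arrays. NdhS, also called CRR31, belongs to the NADH dehydrogenase-like complex of the thylakoid and had 8.97, 10.4 and 12.8 with cytokinin, against 9.45, 11.4 and 17.04 with water. AT4G35660 had 10.3, 11.7 and 14.996 with cytokinin, against 10.1, 10.8 and 14.996 with water. In none of these 3 did the groups separate. CCL, whose full name is CCR-like and whose transcript is known for its circadian rhythm, had 10.5, 15.3 and 15.7 with cytokinin, against 9.25, 12.2 and 13.7 with water, and was higher with cytokinin in all 6 pairs. AT3G09080 had 9.87, 10.9 and 11.5 with cytokinin, against 9.11, 9.53 and 10.2 with water, likewise higher in all 6 pairs. Both genes still had overlapping groups.

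**Figure D1:**
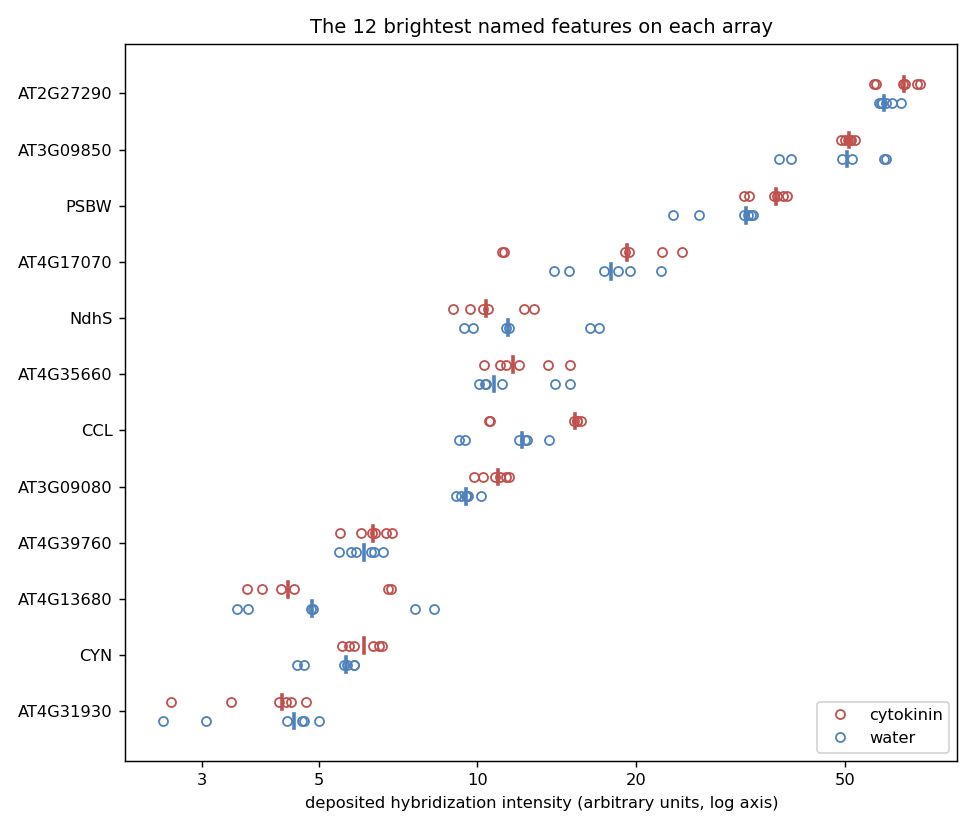
Deposited hybridization intensity (arbitrary units, log axis) of the 12 brightest named features, with 6 cytokinin arrays above 6 water arrays in each row; circles are arrays and short lines are group medians. AT2G27290, AT3G09850 and PSBW stand well above the rest, and in none of the 12 rows do the groups separate.

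AT4G39760 had 5.49, 6.35 and 6.89 with cytokinin, against 5.45, 6.08 and 6.61 with water. AT4G13680 had 3.65, 4.36 and 6.85 with cytokinin, against 3.49, 4.85 and 8.28 with water. The first varied little between arrays and the second more than 2-fold within the water group. CYN encodes cyanase, which breaks down cyanate with bicarbonate, and had 5.54, 6.08 and 6.59 with cytokinin, against 4.55, 5.62 and 5.83 with water, higher in all 6 pairs. AT4G31930 closed the first 12, with 2.62, 4.26 and 4.73 with cytokinin, against 2.53, 4.49 and 5.0015 with water. Intensities of different features also reflect the probe, so their order is one of signals and not of transcript numbers. Among the 12, the water means minus or plus 1 SD of neighbours overlapped except between AT3G09850 and PSBW, PSBW and AT4G17070, and AT3G09080 and AT4G39760.

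The other members were much dimmer. Only 7 of the 60 had a water mean above 10, and 48 had one under 4, where the median of all features was 0.740. The dimmest members were DRT101, named for DNA damage repair or toleration, with a mean of 1.81 ± 0.0544 with cytokinin and 1.80 ± 0.127 with water, and AT5G46390 with 1.54 ± 0.299 with cytokinin and 1.80 ± 0.471 with water (SD, n = 6 each). Just outside the limit stood AT4G27250, with 1.73 ± 0.0927 with cytokinin and 1.79 ± 0.0702 with water, and AT5G10920, with 1.69 ± 0.193 and 1.78 ± 0.189 in the same order (SD, n = 6). In rank over all features the 60 ran from place 3 to place 331 in water. The 271 other features above the dimmest member have several genes, no gene name here, or were set aside. No member reached the value of 100 at which the brightest features of the table stop.

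Cytokinin for 2 h was then compared with water, to see whether the brightest transcripts of the culture changed. Of the 60 members, 0 rose and 1, AT3G19120, fell at an adjusted p of 0.05 (limma on quantile-normalized values, two-sided, Benjamini-Hochberg over all 3091 features tested). Called features were 1.55% of all features tested (1.10% higher and 0.453% lower), and the 1 member is 1.67% of the 60, a share near that background. The median log2 change of the members was -0.034, beside 0.0028 over all features tested, with 22 members above 0 and 38 below. The share above 0 was 36.7% of the members, beside 51.3% of all features tested. At an unadjusted p of 0.05 there were 9 members (15%), beside 9.54% of the features tested. In bulk culture, fewer cells that express a gene and less of its RNA per cell cannot be told apart. The water arrays that chose the members also enter this contrast, so the signs are not independent of the choice.

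After quantile normalization, 95% intervals of the log2 change were taken from the fit without a block. For 55 of the 60 members they lay within a 1.5-fold change in either direction, and the other 5 were AT4G13680, AT3G52960, AT2G26680, PSB27 and AT3G19120. Blocking lowered the SE from 0.235 to 0.0567 for AT4G13680 and from 0.237 to 0.0460 for AT3G52960. It fell from 0.307 to 0.0502 for AT2G26680, from 0.373 to 0.0561 for PSB27 and from 0.0868 to 0.0491 for AT3G19120. Except for AT3G19120, these wide intervals thus reflect mostly spread between replicate numbers, which a block removes. The intervals without a block also hold for quantile normalization only. The change on deposited values lay outside them for 3 members (AT3G09850, CCL and AT3G09080), and that after median scaling for these and AT4G39760 and AT5G58330. The median SD between arrays of a group was 0.171 on the log2 scale for the members, beside 0.172 for all features tested that were above 0 on all arrays.

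**Figure D2:**
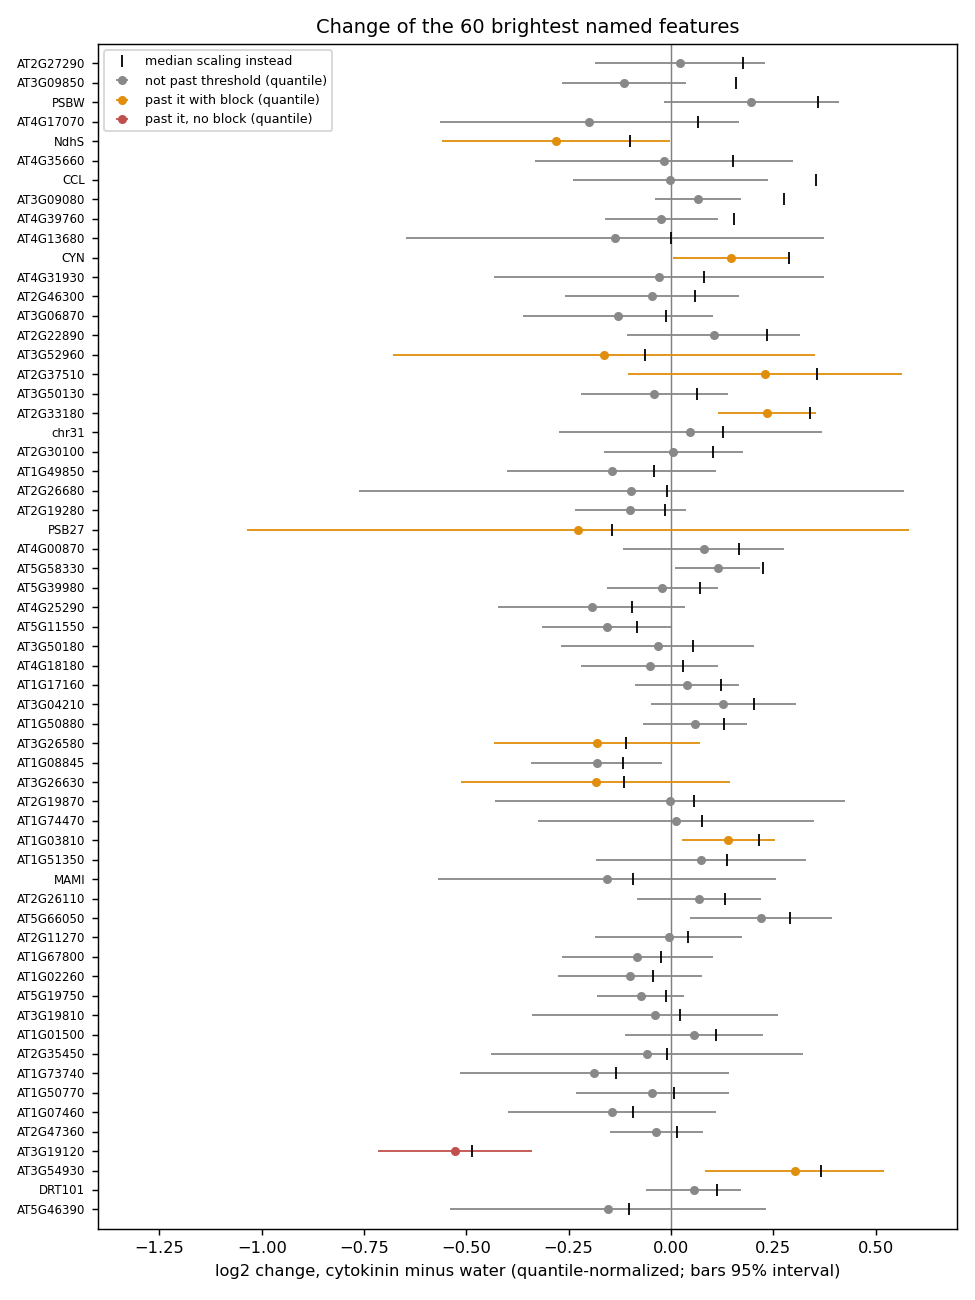
Log2 change, cytokinin minus water, of the 60 members from brightest (top) to dimmest, with 95% intervals (no block), after quantile normalization (dots) and after median scaling (ticks). On the quantile-normalized values AT3G19120 is past the threshold without a block and 10 more members with the replicate number as a block; after median scaling AT3G09080, AT2G33180, AT5G58330, AT1G03810 and AT3G19120 pass with no block.

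AT3G19120 had an intensity of 1.07 at the lowest, 1.21 at the median and 1.38 at the highest of the cytokinin arrays, against 1.53, 1.85 and 2.13 on the water arrays, so its groups do not overlap. It fell by 0.53 on the log2 scale (SE 0.087, limma adjusted p = 0.011). The call was lost when numbers 1 and 2 (adjusted p = 0.164) or numbers 5 and 6 (adjusted p = 0.0506) were left out, at log2 changes of -0.45 and -0.57. Over 30 other settings, 28 of which passed, the change ran from -0.59 to -0.45. AT2G33180 was the other member whose groups do not overlap, with 3.41, 3.53 and 3.96 on the cytokinin arrays, against 2.84, 3.01 and 3.30 on the water arrays. Its log2 change was 0.24 (SE 0.055, limma adjusted p = 0.0574), just short of the threshold. These 2 are 3.33% of the members, beside 2.75% of all features tested whose deposited values do not overlap between the groups. Blocking on the replicate number brought AT2G33180 past the threshold (limma adjusted p = 0.00896), as did median scaling (adjusted p = 0.00955), a higher floor (adjusted p = 0.0385), keeping the dimmest features (adjusted p = 0.0279) and leaving out water array 1 (adjusted p = 0.048). With the block and a running median of the log2 levels along feature numbers removed, it missed the threshold at a change of 0.11 (limma adjusted p = 0.167). With the block and a running median of deviations removed instead, it passed at a change of 0.19 (limma adjusted p = 0.00533).

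With the replicate number as a block, 5 members rose and 6 fell, 18.3% of the 60, beside 11.7% of all features tested (6.47% higher and 5.21% lower). The risers in that fit were AT3G54930 (log2 change 0.30, limma adjusted p = 0.00424), AT2G33180, AT2G37510 (0.23, adjusted p = 0.0128), CYN (0.15, adjusted p = 0.0453) and AT1G03810 (0.14, adjusted p = 0.0462). CYN missed the threshold with the block when either running median along feature numbers was removed (adjusted p = 0.382 for levels, 0.0712 for deviations), as did AT1G03810 for deviations (adjusted p = 0.07). AT3G54930 had 1.92, 2.19 and 2.35 on the cytokinin arrays (lowest, median and highest), against 1.49, 1.90 and 2.01 on the water arrays. Cytokinin over water ran from 1.13 to 1.29 in its 6 pairs. AT2G37510 had 3.12, 3.46 and 4.996 with cytokinin, against 2.53, 2.86 and 4.32 with water, with pair ratios from 1.15 to 1.23. All 5 risers were higher in all 6 pairs on deposited values, as were 8 members in all (13.3%), beside 5.08% of the features tested. A further 10 members (16.7%) were lower in all 6 pairs on these values, beside 22.8%. After quantile normalization the 5 risers were still higher in all 6 pairs, but PSBW, CCL and AT3G09080 in 4, 2 and 4. PSBW and AT3G09080 were lower in 0 pairs and CCL in 2, and their remaining pairs had equal values. Of the 10, MAMI, AT1G07460 and AT5G46390 were then lower in 5, 4 and 5 pairs. The arrays of a group differed among themselves by more than the pairs did for AT2G37510.

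The falls in that fit were AT3G19120, NdhS (log2 change -0.28, limma adjusted p = 0.032), PSB27 (-0.23, adjusted p = 0.0302), AT3G26630 (-0.18, adjusted p = 0.0371), AT3G26580 (-0.18, adjusted p = 0.0467) and AT3G52960 (-0.16, adjusted p = 0.0479). AT3G52960 had 2.35, 2.40 and 4.43 with cytokinin, against 2.50, 2.73 and 5.04 with water, and was lower in all 6 pairs. AT3G26630 had 1.40, 1.95 and 2.23 with cytokinin, against 1.64, 2.05 and 2.79 with water, also lower in all 6. After median scaling with the same block, AT3G19120 was the 1 of these 6 still called, and NdhS (log2 change -0.099, limma adjusted p = 0.322), PSB27 (-0.14, adjusted p = 0.12), AT3G26630 (-0.12, adjusted p = 0.156), AT3G26580 (-0.11, adjusted p = 0.152) and AT3G52960 (-0.064, adjusted p = 0.29) missed the threshold. On the deposited values with the block all 6 were called (limma adjusted p from 0.00032 to 0.0445), where 22.4% of all features tested were called lower.

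With the arrays of each set (numbers 1 and 2, 3 and 4, 5 and 6) averaged and the set as a block, AT3G19120 was the 1 member that passed (limma adjusted p = 0.0169), beside 1.33% of all features tested. The other 10 then had adjusted p from 0.0917 to 0.331. With the block and a running median of deviations over neighbouring feature numbers removed, 13 members passed (21.7%), beside 15.5% of the features tested.

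Among the members with a descriptive name, 3 belong to the photosynthetic apparatus of the thylakoid. PSBW had a log2 change of 0.20 (SE 0.099, 95% interval -0.017 to 0.41, limma adjusted p = 0.591), and 0.144 was its adjusted p with the block. Its quantile-normalized value was the same on all 6 cytokinin arrays (SD 0), where the deposited SD was 2.80. The SE and interval thus hold no scatter measured in that group. With the block PSBW passed on the deposited values (0.26, limma adjusted p = 0.00557) and after median scaling (0.36, adjusted p = 0.000995). Its pair ratio was 1.24 and 1.37 for numbers 1 and 2, and from 1.11 to 1.19 for the other numbers. NdhS went the other way in 5 of 6 pairs of deposited values, with ratios of 0.753 and 0.749 for numbers 1 and 2 and from 0.894 to 1.03 for the others. After quantile normalization it was lower in all 6 pairs (95% interval of the log2 change -0.56 to -0.0036, limma adjusted p = 0.511 without a block). The NdhS feature lies among the first 144 features, where the median log2 ratio of all features tested was -0.157 and -0.165 for numbers 1 and 2 and from 0 to 0.060 for the others. With that running median removed, its log2 change was -0.23 (limma adjusted p = 0.0122 with the block).

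PSB27, a lumenal factor in the assembly and repair of photosystem II, had 1.09, 2.41 and 3.39 on the cytokinin arrays (lowest, median and highest), against 1.22, 3.01 and 4.26 on the water arrays. Its log2 change of -0.23 had an SE of 0.37, the largest of the 60 (limma adjusted p = 0.996 without a block). With the running median removed the change was -0.14 and missed the threshold with the block (adjusted p = 0.113). Of 3 features tested whose listed names point to the light reactions, 1 rose and 0 fell: the riser was not PSBW but LHB1B2, a chlorophyll-binding antenna protein of photosystem II, a dim feature with means of 0.782 ± 0.0729 with cytokinin and 0.521 ± 0.0525 with water (SD, n = 6 each; log2 change 0.68, limma adjusted p = 0.00144). LHB1B2 is also the 1 leaf marker gene noted above. The word lists used for this count place NdhS with respiration, by its words NADH dehydrogenase, and leave PSB27 without a class, since its listed name has no descriptive words. PSAN, a photosystem I subunit described below, is not among the 3 either, so they are not all photosystem features of the array.

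A further pair of named members serves plastid metabolism. AT5G58330, the NADP-dependent malate dehydrogenase that exports reducing power from the chloroplast as malate, had 2.76, 2.96 and 3.11 with cytokinin, against 2.59, 2.68 and 2.79 with water. Its log2 change was 0.11 (SE 0.048, limma adjusted p = 0.442), and 0.23 with adjusted p = 0.0324 after median scaling. AT1G74470, geranylgeranyl reductase, makes the phytyl chain of chlorophyll and tocopherol and had 1.63, 1.98 and 2.53 with cytokinin, against 1.60, 2.01 and 2.78 with water. Its log2 change was 0.012 (95% interval -0.32 to 0.35, limma adjusted p = 0.999).

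The other named members did not pass without a block either. Cyanase (CYN) had a log2 change of 0.15 (limma adjusted p = 0.496). The SNF2-type remodeling factor chr31, named chromatin remodeling 31, had 2.52, 2.84 and 3.64 with cytokinin, against 2.23, 2.98 and 3.58 with water, and a log2 change of 0.047 (limma adjusted p = 0.999). MAMI, a membrane-associated protein named for induction by mannitol, had 1.28, 1.90 and 2.19 with cytokinin, against 1.48, 1.93 and 2.81 with water, and a change of -0.16 (limma adjusted p = 0.964). It was lower in all 6 pairs of deposited values, at ratios from 0.759 to 0.990. DRT101 changed by 0.056 (limma adjusted p = 0.932). The remaining 50 members are known in the tables used here by locus number alone, so no function is given for them.

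How the arrays are scaled decides the sign for many bright features. After median scaling 39 members were above 0 and 21 below, with a median log2 change of 0.061 (beside 0.018 over all features tested). On the values as deposited 25 were above 0 and 35 below, with a median of -0.039 (beside -0.072 over all features tested). The share above 0 was 65% of members beside 56.8% of all features tested after median scaling, and 41.7% beside 24.2% as deposited. In all, 17 of the 60 had opposite signs after quantile normalization and after median scaling. After median scaling 4 members rose (AT3G09080, AT2G33180, AT5G58330 and AT1G03810) and AT3G19120 fell, 8.33% of the 60, beside 2.75% of all features tested (2.26% higher and 0.485% lower). On the values as deposited AT3G19120 alone passed, beside 1.48% of the features tested. With the block as well, 21 members (35%) passed on the deposited values, beside 27.0% of all features, and 17 (28.3%) after median scaling, beside 15.4%. The directions differ: 8 were higher and 13 lower on the deposited values (4.61% and 22.4% of all features), against 16 higher and 1 lower after median scaling (11% and 4.43% of all features). The 1 lower call after median scaling was AT3G19120.

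The gap was widest at the top. For the 12 brightest the median log2 change was -0.020 after quantile normalization, 0.057 as deposited and 0.16 after median scaling, with 4, 8 and 11 of the 12 above 0. For CCL the log2 change was -0.0016 after quantile normalization (limma adjusted p = 0.999), 0.26 as deposited (adjusted p = 0.407) and 0.36 after median scaling (adjusted p = 0.293). Quantile normalization gives each place in the order of an array the same value on all arrays, and CCL held places 15 to 22 of all features on the cytokinin arrays and 14 to 23 on the water arrays. PSBW held place 6 on every cytokinin array and places 6 to 10 on the water arrays. For AT3G09080, with 10.8 ± 0.634 as its deposited mean with cytokinin and 9.54 ± 0.354 with water (SD, n = 6 each), the log2 change was 0.066 after quantile normalization (limma adjusted p = 0.834) and 0.28 after median scaling (adjusted p = 0.0119).

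Seen as a share of each array's total deposited intensity, the 60 features held 9.21% ± 0.398 with cytokinin and 8.86% ± 0.0859 with water (SD, n = 6 each). The cytokinin arrays ran from 8.68% to 9.60% and the water arrays from 8.73% to 8.97%, so the groups overlap. AT2G27290, AT3G09850 and PSBW alone held 3.98% ± 0.144 with cytokinin and 3.66% ± 0.361 with water, and the rest of the members 5.23% ± 0.349 and 5.20% ± 0.305 in the same order. No test was made of these shares.

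The numbered arrays also differed among themselves. When the deposited means of numbers 1 and 2, 3 and 4, and 5 and 6 were compared over both groups, the log2 range between these sets exceeded the size of the quantile-normalized log2 change with cytokinin for 51 of the 60 members (85%), beside 89.6% of all features tested that were above 0 on all arrays. Against the change on deposited values it did so for 51 members too, beside 85.6% of such features. A range over 3 means tends to exceed a single difference, so these shares do not show that the sets matter more than cytokinin. The median range was 1.22-fold for the members and also 1.22-fold for all features. In 12 members it was above 1.5-fold. The sets were known from earlier results of these arrays, and the labels name no cause for them.

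**Figure D3:**
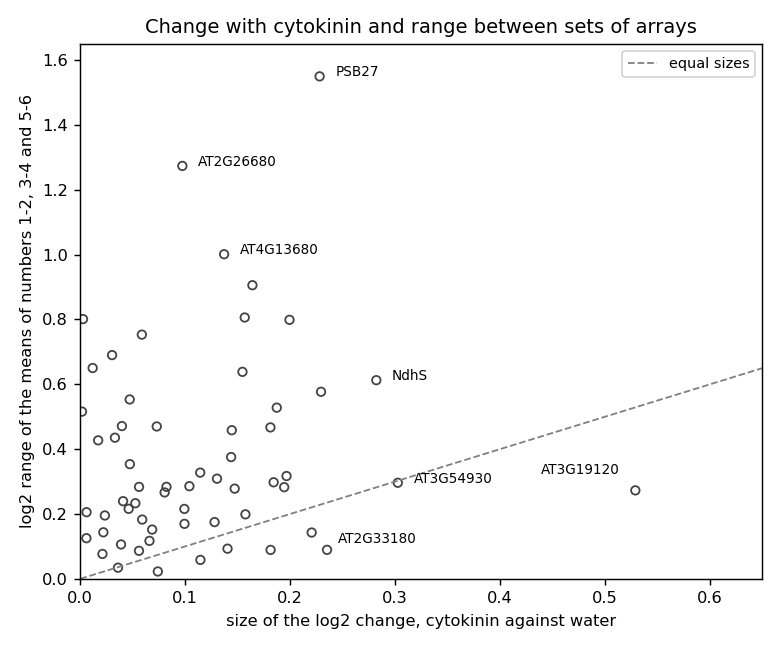
Size of the log2 change with cytokinin (horizontal, quantile-normalized) against the log2 range between the deposited means of arrays numbered 1 and 2, 3 and 4, and 5 and 6 (vertical) for the 60 members; the dashed line marks equal sizes. 51 of the 60 circles lie above the line, PSB27 highest, and AT3G19120 lies farthest to the right.

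PSB27 had mean intensities of 3.58 (numbers 1 and 2), 2.71 (3 and 4) and 1.22 (5 and 6), a range of 2.93-fold. Among all features its place ran from 111 to 837 on the cytokinin arrays and from 75 to 744 on the water arrays. NdhS had 14.6, 10.9 and 9.48 over the same sets, geranylgeranyl reductase (AT1G74470) 2.58, 1.99 and 1.64, and MAMI 2.46, 1.92 and 1.40. PSBW had 28.7, 35.6 and 35.0, lowest in numbers 1 and 2. PSBW thus ran against PSB27 and NdhS over the sets.

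Numbers 1 and 2 alone lay above the other arrays in 11 members (18.3%, beside 10% of the features above 0 on all arrays), and numbers 5 and 6 below them in 15 (25%, beside 13.2%). In 10 members all 4 arrays of numbers 1 and 2 lay above the other 8 and all 4 of numbers 5 and 6 lay below them, 16.7% of the 60, beside 5.11%. These were AT4G17070, NdhS, AT4G13680, AT2G26680, PSB27, AT3G50180, AT2G19870, AT1G74470, MAMI and AT2G35450. Of these, AT2G26680 and AT4G13680 had the largest ranges after PSB27, 2.42-fold and 2.00-fold. The reverse position of numbers 5 and 6, above all others, was seen in 8 members (13.3%, beside 13.3% of all such features), AT3G52960 and AT2G37510 among them. AT3G52960 had set means of 2.45, 2.57 and 4.60, in the order of the numbers.

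**Figure D4:**
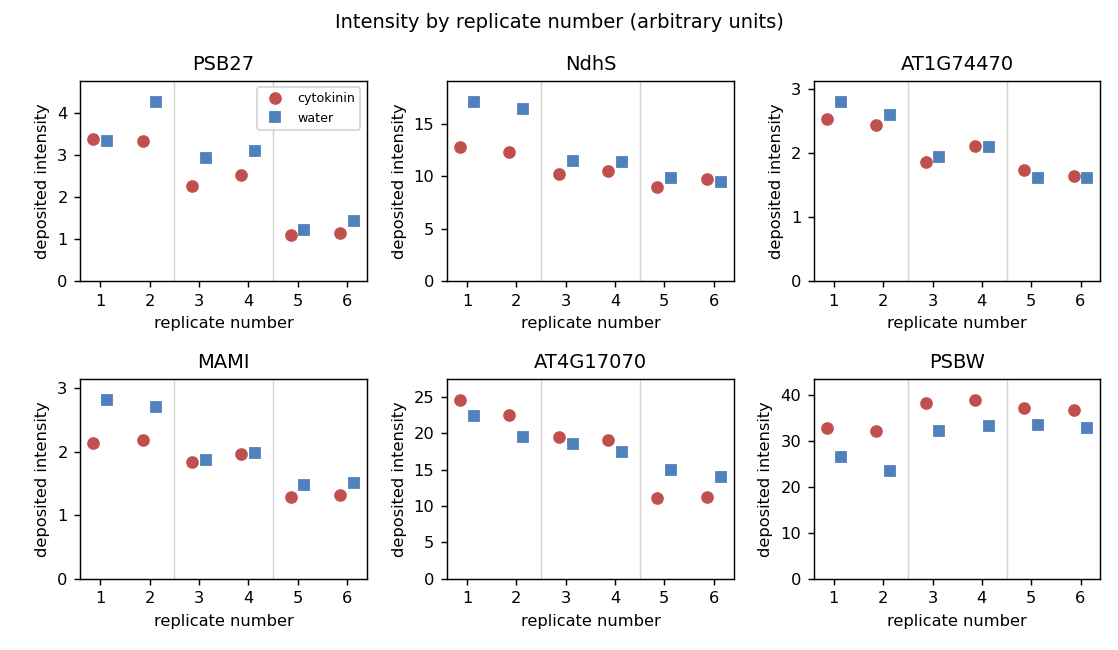
Deposited intensity (arbitrary units) by replicate number for PSB27, NdhS, AT1G74470, MAMI, AT4G17070 and PSBW, cytokinin circles left of water squares; grey lines part numbers 1 and 2, 3 and 4, and 5 and 6. In the first 5 panels numbers 1 and 2 are highest and 5 and 6 lowest, whereas PSBW is lowest in numbers 1 and 2 and higher with cytokinin at every number.

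The feature number is a property that the choice did not use. In 24 equal bins of feature numbers, the neighbouring bins 12 to 14 (features 2177 to 2736) held 17 of the 60 members, or 28.3%, but 12.6% of the features with 1 gene. Of the 87 features with 1 gene there, 19.5% were members, beside 8.67% over all bins. These bins were singled out after their counts were seen, and bin 19 had a like share, with 6 members among 31 such features (19.4%). The median water intensity of all features in them was 0.838, 0.821 and 0.917, against 0.740 over the array, but bin 17, with a median of 0.910, held no member. Of these 17 members, 14 had log2 changes below 0 (median -0.041), and of the other 43 members, 24 did (median -0.021). The median log2 change of all features tested was also below 0 in bins 12, 13 and 14. It was -0.020, -0.028 and -0.043 in that order, beside 0.0028 over the array. PSB27, AT1G74470, AT3G26580, AT3G26630 and AT3G19120 lie in bins 12 to 14. The labels do not tie feature numbers to positions, and their part in these levels was not tested.

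**Figure D5:**
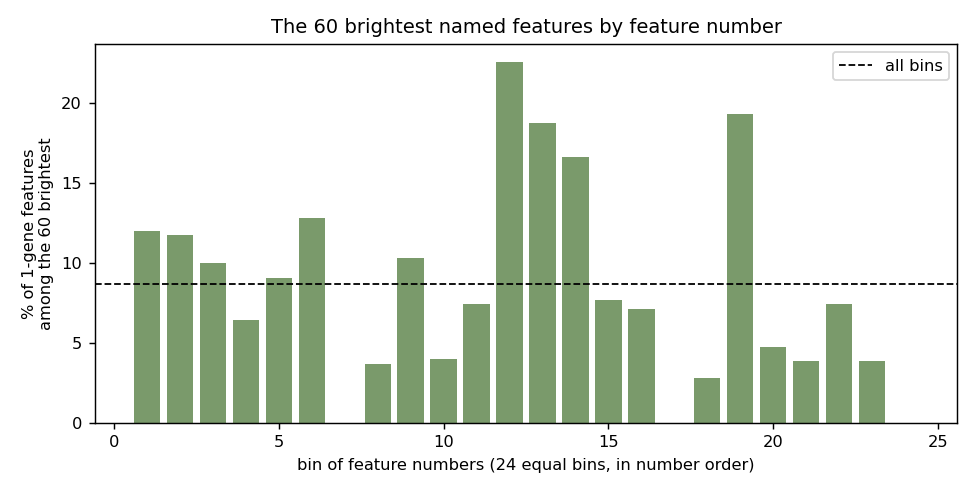
Share of the features with 1 gene that are among the 60 brightest (percent, vertical) in 24 equal bins of feature numbers (horizontal); the dashed line is the share over all bins. Bins 12 to 14 hold 17 of the 60 members, bin 19 holds 6, and bins 7, 17 and 24 hold none.

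Choosing by the cytokinin arrays instead kept 56 of the 60 members. AT1G07460, AT1G73740, AT5G46390 and AT3G19120 then dropped out, and PSAN, FZL, AT3G18870 and AT4G27250 came in. FZL, a dynamin-related protein of thylakoid organization, had a mean of 1.99 ± 0.116 with cytokinin and 1.66 ± 0.081 with water (SD, n = 6 each) and a log2 change of 0.32 (limma adjusted p = 0.0102). PSAN, a photosystem I subunit, had 1.78 ± 0.306 with cytokinin and 1.58 ± 0.445 with water (SD, n = 6 each; log2 change 0.27, limma adjusted p = 0.792). The 1 call among the members is thus in a feature that the cytokinin arrays do not place among the 60 brightest. Choosing by all 12 arrays kept 57 of the 60 members, and AT3G19120 again dropped out while FZL came in. With either of these choices FZL was the 1 call, so 1 feature rose and 0 fell.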

How the data were processed

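Transcript levels were measured in 12 RNA samples, 6 per group. The authors deposited 1 linear intensity per feature and array; their scaling and background correction are not given in the sources used here. Genes came from the platform annotation, named through a RefSeq table (assembly TAIR10.1, names only), which held all 60 members; no coordinates or sequences were used.

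Arrays were quantile-normalized, given a floor of 0.258, the 10th percentile of all values above 0, and put on the log2 scale; the 348 features that never exceeded the floor were omitted and 3091 tested with limma 3.58.1 (R 4.3.3, lmFit and eBayes, two-sided, no block) at an adjusted p of 0.05. The fit was tested on simulated data whose arrays scatter independently, so that test does not cover the shared deviations of same-numbered arrays. Levels are deposited values; changes are cytokinin minus water. Plots used matplotlib 3.10.9. Precision is limited by the number of arrays.

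Members, sets, lists and tests were chosen with earlier results of these data known. Replicate numbers were taken as pairs because same-numbered arrays correlated (0.835, 0.839, 0.707, 0.696, 0.814 and 0.825 for numbers 1 to 6), not from the labels. The highest correlation with a water array of another number was 0.519, 0.508, 0.355, 0.361, 0.677 and 0.712 in the same order. The 6 pairs are therefore not shown to be independent of each other. Genes named are the 12 brightest, those called without or with the block, those at the limit of 60, the 3 brightest of each word-list class and all with a descriptive name, the last added after seeing the data. Other members are named only for a pattern over arrays, pairs or settings, likewise chosen after their values were seen. In all, 30 other settings were fitted, 9 of them added after seeing the data.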

Additional observations from a re-analysis of the deposited data

Results flagged for a closer look

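In 122 groups of 6 values (deposited intensity of each member in each group, and the members' share of the total), 5 held an array far from the nearest other, where chance alone flags about 1 group in 20. With cytokinin, the highest array stood apart for AT2G33180 (3.96, next 3.62), AT5G11550 (2.40, next 2.07) and AT4G18180 (2.53, next 2.25), and the lowest for AT2G26110 (2.00, next 2.08). With water, the highest array stood apart for AT5G39980 (3.03, next 2.67).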

How the results depend on the processing

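Median scaling turned the count of 48 changed features into 85, and array weights into 76; it was 361 with the replicate block and 375 with a running median of the log2 levels along feature numbers removed as well. The 1 changed member became 5, 1, 11 and 11 in the same order. It became 2 with a floor at the 20th percentile (52 features changed) and 2 with the dimmest features kept (63 features changed). In the main fit, where 1.55% of all features tested were called, 0 of the 30 brightest and 3 of the 120 brightest were called. Settings added after seeing the data gave, for features and then members, 478 and 13 with the running median of deviations removed and the block, 837 and 21 as deposited with the block, and 477 and 17 after median scaling with the block. Without numbers 1 and 2 they gave 5 and 0 (with the block 160 and 5), without 3 and 4 they gave 7 and 1 (264 and 4), and without 5 and 6 they gave 21 and 0 (217 and 7). Leaving out 1 array gave 32 to 39 features and 1 to 2 members, 2 without water array 1. The members' median log2 change of -0.034 was 0.061 after median scaling, with and without the block, and -0.0069 with the running median of deviations removed; leaving out 1 array gave -0.056 to -0.010. Without 7 loci that general knowledge, not the tables, places in families set aside by name (AT5G39980, AT3G26630, AT2G30100, AT2G19280, AT1G49850, AT4G00870 and AT3G54930), 1 of 53 members passed. Intensity on 12 arrays gives no counting depth.

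Of 810 values of 27 named members under other settings, 64 newly passed, 2 no longer did and 3 passed with the sign turned. The last were CCL with the block, at 0.26 as deposited and 0.36 after median scaling, and AT4G39760 at 0.15 after median scaling with the block. A further 67 values that did not pass turned sign. Settings without some arrays rest on fewer samples; why the others differ was not tested.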
